A study of Canis lupus familiaris with 30 samples.

Results

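The interferon response and antigen presentation genes described here are 42 gene symbols: sensors of viral RNA, interferon regulators, antiviral effectors, genes of the class I and class II antigen presentation pathways, and genes that interferon gamma induces. They were looked up by symbol in a table of raw counts for 30 canine thyroid carcinomas. Of the 42 symbols, 32 were found, on 33 of the 30424 rows, because OASL stood on 2 rows with different Ensembl identifiers. The symbols MX1, IFIH1, IRF7, IRF9, USP18, CMPK2, TAP2, PSMB8, CXCL9 and GBP5 matched no row and were not analysed here. All 33 rows passed the count filter of at least 10 counts in at least 5 tumors, which 18711 genes passed. The rows fell into 3 sensors, 2 regulators, 20 rows of effectors, 5 class I genes, 2 class II genes and 1 gene induced by interferon gamma.

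Interferons are cytokines that cells release on sensing foreign or misplaced nucleic acid. Type I interferons signal through a complex that holds STAT2 and IRF9 and switch on antiviral effector genes in nearly every cell type, whereas interferon gamma, made by T and NK cells, acts in part through IRF1. Interferon gamma also induces NLRC5 and CIITA, the master regulators of class I and class II antigen presentation genes, and chemokines such as CXCL10. Class I molecules show peptides from inside the cell to CD8 T cells, and class II molecules on professional antigen presenting cells show peptides to CD4 T cells.

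The study measured RNA from primary thyroid gland tumors of dogs, extracted from frozen tissue as total RNA and sequenced after removal of ribosomal RNA. The labels give a single group, tumor tissue of the thyroid gland, with no treatment, time or histologic type of each tumor, so the 30 tumors were kept as 1 set and follicular and medullary carcinomas were not compared. Tumors are named here by the library names in the labels. A bulk tumor holds carcinoma cells together with stroma, vessels and leukocytes, and fewer cells of a type cannot be told apart from less RNA per cell. Each tumor gave a single library, so no technical replicate was available.

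Between 12288945 and 45148677 counts per tumor fell on genes, with a median of 25569678. The levels given below are on a log2 scale, after each count was scaled by a median-of-ratios size factor and 1 was added. They are not corrected for gene length, so they are compared between tumors and never between genes. On the first principal component of all tested genes, which held 21.5% of the variance, 5 tumors lay apart (TC1020, TC1473, TC1601, TC1936 and TC2289, at 0.32 to 0.45, with the other 25 at -0.15 to 0.09). These 5 tumors are not a group of the labels. The summed level of 6 C-cell genes was 17.84 to 19.43 in them and 5.56 to 13.15 in the other 25. TC538 had the smallest size factor, 0.279, with the next at 0.713, and held the most extreme value, 0.607, on the second principal component (15.7% of the variance). Because 5 tumors lay apart, correlations of single genes are given over the other 25, and counts of genes over 30 and over 25. TC538 is among the 25.

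Expression of the members differed from tumor to tumor, with a median SD of 1.08 beside 0.95 over all tested genes. The same few tumors often held the extreme values. TC1473 had the highest level of all 30 tumors in 10 of the 33 rows (6.27% of all tested genes were highest there) and lay among the top 3 in 19, with a median deviation from the gene medians of 1.42. TC1601 was highest in 6 rows (5.57% of all genes) and TC1020 in 4 (5.92%). In all, the highest value lay in one of the 5 tumors apart in 21 of 33 rows, beside 29.0% of all tested genes. The 5 tumors were set apart by the levels of all tested genes, the members included. At the other end, TC538 was lowest in 10 rows, beside 18.7% of all tested genes, and TC1869 in 8, beside 3.92%. The 10 rows include ISG20, which had 0 counts in TC538. TC1869 had the lowest median deviation, -1.40, and was the lowest tumor for IFI44, IFI44L, IFIT1, IFIT2, OAS2, HERC6, DDX60 and 1 row of OASL. It had the most counts of any tumor, but its size factor was 1.14, where the highest was 1.62. TC1869 also had the highest summed level of 7 follicular thyrocyte genes, 22.75, beside a median of 18.52.

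**Figure D1:**
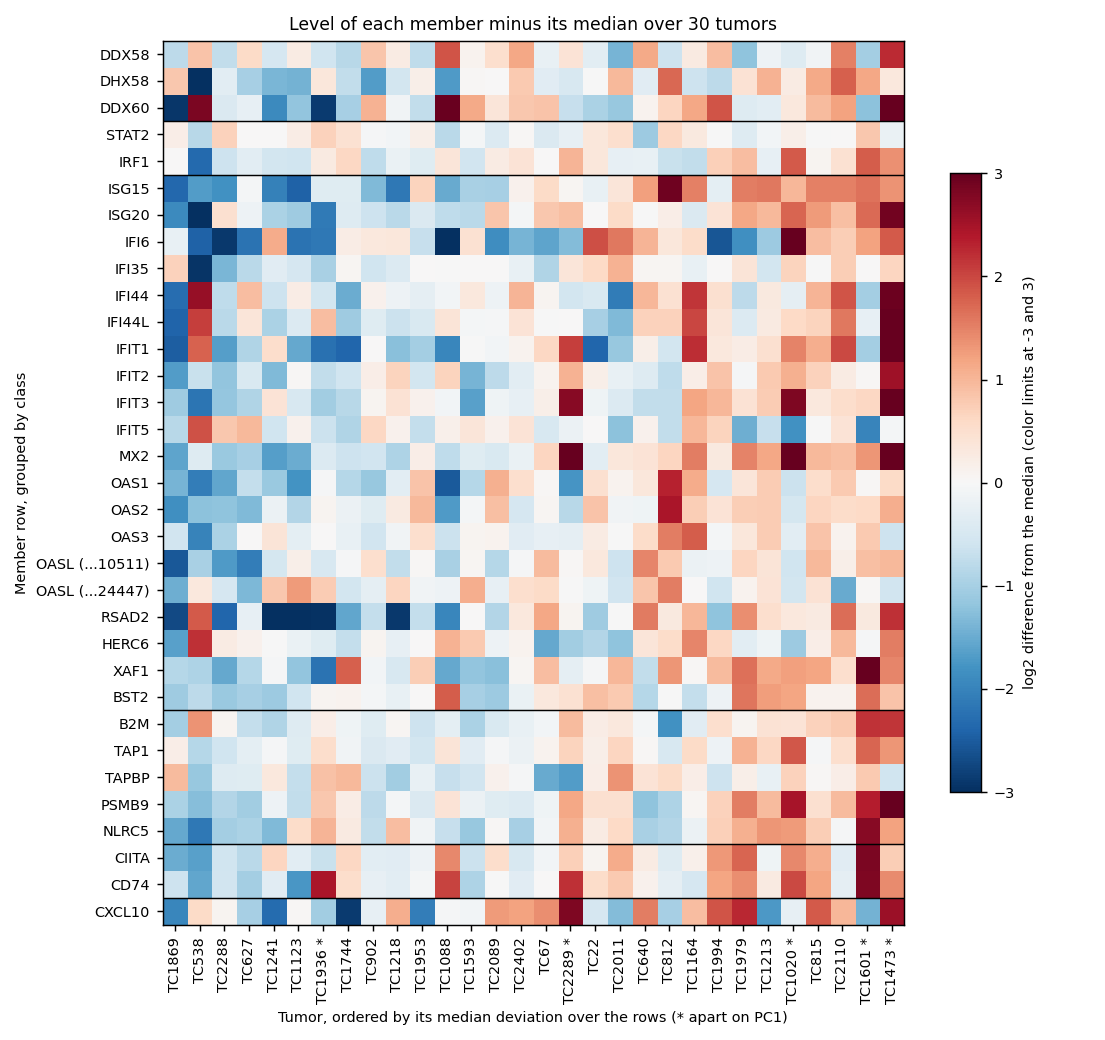
Level of each of the 33 member rows (vertical axis, grouped by class) in each of the 30 tumors (horizontal axis) as the log2 difference from the gene's median, with red above and blue below it and colors limited at -3 and 3. TC1869, with a median deviation of -1.40, stands at the left end and TC1473, at 1.42, at the right end.

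High values of the effectors and of the antigen presentation genes did not always lie in the same tumor. TC1601 had a median deviation of 2.18 over the class I rows and 2.81 over the class II rows, the highest of the 30 tumors for both, but only 0.44 over the effectors and -1.02 over the sensors. TC1088 was at 1.72 over the class II rows and 1.88 over the sensors, with the effectors at -0.70. TC812 had the highest level of ISG15, OAS1, OAS2 and 1 row of OASL and the lowest level of B2M. TC1473 was above the medians in every class, from 0.59 for the regulators to 2.57 for CXCL10.

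The 3 sensors found belong to the family of helicases that detect viral RNA or assist in its detection. DDX58, which encodes RIG-I, ranged from 7.22 in TC2011 through a median of 8.63 to 10.87 in TC1473. DDX60, a helicase induced by interferon, ranged from 4.98 in TC1869 through 7.90 to 11.66 in TC1473. DHX58, which encodes the regulatory sensor LGP2, ranged from 6.66 in TC538 through 10.00 to 11.78 in TC2110. The sensors did not share an order of tumors: TC1088 was second highest for DDX58 (10.51) and DDX60 (10.87) and second lowest for DHX58 (8.30), and TC538 had 10.73 for DDX60 beside the lowest DHX58. DDX58 and DDX60 had a Spearman's rho of 0.73 over the 25 tumors, and the lowest of the 3 pairs of sensors was at -0.35.

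Of the regulators, STAT2, the transcription factor specific to type I and type III interferon signaling, was the steadiest member. It ranged from 9.49 in TC640 through a median of 10.58 to 11.39 in TC1601, with an SD of 0.45 over 30 tumors, at the 4.47th percentile of the SDs of all tested genes. IRF1, a transcription factor that interferon gamma induces, ranged from 6.11 in TC538 through 8.45 to 10.29 in TC1020 (SD 0.85). TC1601 followed TC1020 closely for IRF1 at 10.26, TC1473 had 9.83, and the highest value among the 25 other tumors was 9.38 in TC1979.

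Among the effectors, IFI6, an interferon-induced mitochondrial protein, had the widest range. It ran from 2.00 in TC1088, where 3 counts were found, through a median of 7.62 to 12.47 in TC1020, with the second highest tumor, TC22, at 9.57. With an SD of 1.99, IFI6 was the only member row in the most variable 10% of tested genes (SD of 1.95 or more), and no row was there when TC1088 was left out. As a whole the members varied about as much as other genes. Their median SD was 1.08 beside 0.95 over all tested genes, and 0.89 beside 0.88 without the 5 tumors apart.

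MX2, an interferon-induced GTPase of the family that blocks viral replication, stood far above the rest in 3 tumors. Its level was 14.29 in TC1020, 13.65 in TC1473 and 12.35 in TC2289, while the other 27 tumors lay between 7.64 in TC1241 and 10.83 in TC1164. The 3 tumors belong to the 5 that lay apart, of which TC1601 (10.63) and TC1936 (8.89) were within the range of the rest. In counts, MX2 ran from 134 to 20717 with a median of 658.

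ISG15, a ubiquitin-like protein that is conjugated to other proteins during the interferon response, ranged from 4.12 in TC1123 through 6.55 to 9.47 in TC812. RSAD2, which encodes viperin, ranged from 2.33 in TC1241 through 5.85 to 8.04 in TC1473. ISG20, an exonuclease that degrades RNA, had 0 counts in TC538, where a count of 0 allows up to 3 counts, and 6.65 in TC1473. At the size factor of TC538, 0.279, a count of 3 would stand near the ISG20 median of 3.76. ISG20 can therefore not be called lowest in TC538. ISG20 was thinly counted throughout, with a median count of 12.5, so its lower values rest on few reads. The tumors that were low for ISG15 and RSAD2 overlapped, with TC1123 at 4.12 and 2.69 and TC1241 at 4.53 and 2.33, but TC538 had 4.89 for ISG15 beside 7.68 for RSAD2.

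The IFIT genes encode proteins that bind viral RNA lacking the cap marks of the host. IFIT1, IFIT2 and IFIT3 were each highest in TC1473, at 8.39, 8.26 and 8.87, with medians of 5.12, 5.73 and 5.21. IFIT5 had a different order of tumors. Its highest level was 11.49 in TC538, its lowest was 7.61 in TC1601, and TC1473, at 9.54, lay near the median of 9.59. Without the 5 tumors apart the highest value of IFIT3 was 6.39, against 8.87 with them.

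The oligoadenylate synthetases make a messenger that activates RNA decay by RNase L. OAS1 ranged from 6.47 in TC1088 through 8.99 to 11.29 in TC812. OAS2 ranged from 7.98 in TC1869 through 9.81 to 12.25 in TC812, with TC1473 second at 10.89. OAS3 ranged from 7.17 in TC538 through 9.18 to 11.01 in TC1164, followed by TC812 at 10.72. TC812 thus stood first or second for all 3 genes, and none of the 3 was highest in a tumor of the 5 apart. The 2 rows of OASL, an OAS-like protein, differed in their tumors, with the lowest values in TC1869 (3.63) and TC2110 (7.42) and the highest in TC640 (7.63) and TC812 (10.48).

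IFI44 and IFI44L, related interferon-induced proteins that lie side by side in the dog genome, were both lowest in TC1869 (5.79 and 5.13) and highest in TC1473 (11.02 and 10.89), with TC538 second (10.70 and 9.61). HERC6, a ubiquitin ligase family member, ranged from 6.99 in TC1869 through 8.62 to 10.82 in TC538. XAF1, which promotes apoptosis, ranged from 2.65 in TC1936 through 4.86 to 7.99 in TC1601. IFI35, an interferon-induced leucine zipper protein, ranged from 5.87 in TC538 through 8.81 to 9.85 in TC2011. BST2, which encodes tetherin and holds budding virus at the cell surface, ranged from 7.03 in TC2288 through 8.15 to 9.97 in TC1088.

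**Figure D2:**
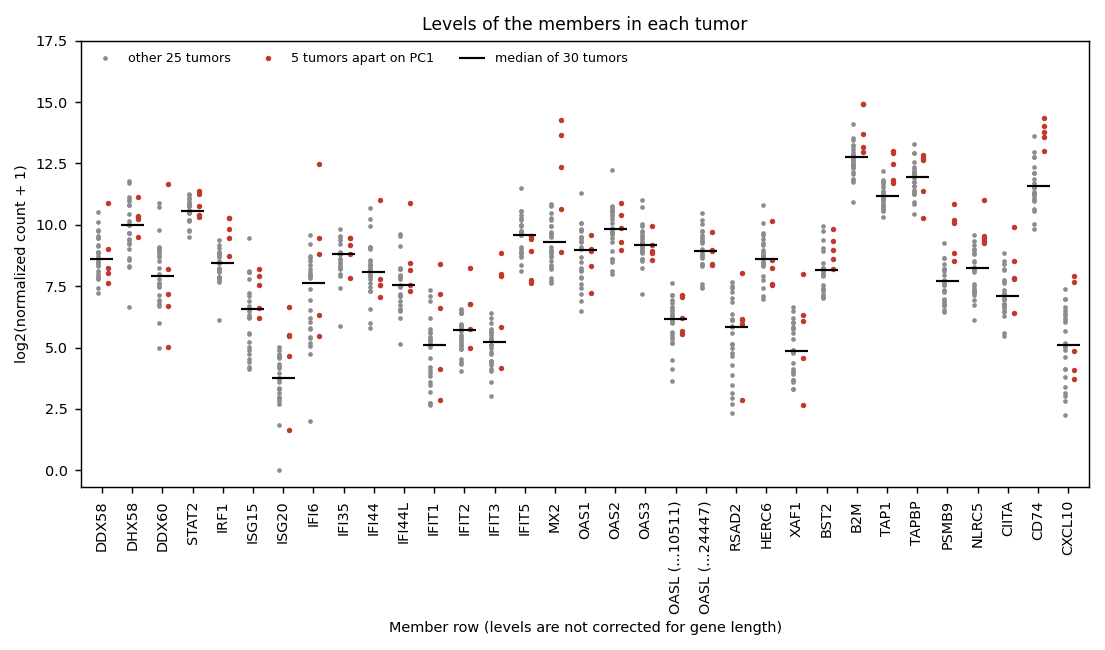
Level of each member row in every tumor as log2(normalized count + 1), with red points for the 5 tumors apart on the first principal component, gray points for the other 25 and a black line at the median of 30 tumors. The 3 highest points of MX2, from 12.35 to 14.29, are red, and the lowest point of ISG20 is the 0 counts of TC538.

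Of the 5 class I genes, 4 were highest in TC1601, TC1473 or TC1020, and TAPBP was highest in TC2011. B2M, the light chain of class I molecules, was 14.94 in TC1601 and 14.91 in TC1473, with a median of 12.77, and 10.94 in TC812, below the next lowest tumor, TC1869, at 11.74. TAP1, a subunit of the peptide transporter, ranged from 10.31 in TC538 through 11.15 to 13.01 in TC1020. PSMB9, a subunit of the immunoproteasome, ranged from 6.44 in TC538 through 7.72 to 10.86 in TC1473, with TC1020 at 10.19 and TC1601 at 10.07, and no other tumor above 9.26. NLRC5 ranged from 6.11 in TC538 through 8.26 to 11.00 in TC1601, and the second tumor, TC1213, had 9.58. TAPBP, which encodes the chaperone tapasin, ranged from 10.29 in TC2289 through 11.97 to 13.31 in TC2011.

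Of the class II genes, CD74, the invariant chain that guides class II molecules, ranged from 9.82 in TC1123 through 11.58 to 14.37 in TC1601. TC1936 (14.02), TC2289 (13.77), TC1088 (13.60) and TC1020 (13.56) came next, so 4 of the 5 highest tumors were among the 5 apart. CIITA ranged from 5.46 in TC538 through 7.09 to 9.92 in TC1601, and TC1936, second highest for CD74, had 6.42 for CIITA, below its median. CXCL10, a chemokine that draws activated T cells, ranged from 2.25 in TC1744 through 5.12 to 7.91 in TC2289, with TC1473 at 7.69 and TC1979 at 7.38. It was thinly counted, with a median count of 35.5.

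Which genes followed the antiviral, class I, class II and leukocyte genes from tumor to tumor was asked with 4 anchors: MX2 in place of MX1 for the effectors, NLRC5 for class I, CD74 for class II, and PTPRC, which encodes the leukocyte surface protein CD45. Spearman's rho of every tested gene with each anchor was set against 100000 permutations (two-sided), the p values were adjusted over all 18710 other genes by the Benjamini-Hochberg method, and genes with an adjusted p below 0.05 were called. The smallest p that the permutations give is 1e-05, so at least 4 genes must reach it before any is called.

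With MX2, 9 of 32 member rows were called in the same direction over 30 tumors, where 0.844% of all tested genes were called, and 0 in the opposite direction (0 at an unadjusted p below 0.05 by the permutation test of rho), where 0.278% of all genes were. They were ISG15, ISG20, RSAD2, IFIT1, IFIT3, XAF1 and BST2 among the effectors and TAP1 and PSMB9 of class I. A single row, ISG15, was called over the 25 tumors, beside 0.0214% of all genes. ISG15 and MX2 had a Pearson's r of 0.89 (permutation p = 2e-05) and a rho of 0.91 (permutation p = 1e-05, the smallest the permutations give; adjusted p = 0.0468) over the 25 tumors, and r was 0.89 without the 2 tumors farthest from the MX2 median. RSAD2 was next, with r = 0.80 and rho = 0.79 (permutation p = 2e-05 for both), but it was not called (adjusted p = 0.0748).

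The median rho of the 32 rows with MX2 over the 25 tumors was 0.45, against 0.01 for all tested genes, and 30 of the 32 were above 0. The effectors had a median of 0.53, with OAS1 at 0.74, OAS2 at 0.68, ISG20 at 0.67 and XAF1 at 0.65. Lowest were IFIT5, at -0.16 (r = -0.17, permutation p = 0.414 for r and 0.442 for rho), and STAT2, also at -0.16. Class I had a median of 0.44 and the regulators of 0.01.

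With NLRC5, 11 of 32 rows were called in the same direction over 30 tumors (4.4% of all tested genes): IRF1, ISG20, IFIT2, IFIT3, MX2, BST2, B2M, TAP1, PSMB9, CIITA and CD74. In the opposite direction 0 were called (1 at an unadjusted p below 0.05 by the permutation test of rho), beside 2.21% of all genes. Over the 25 tumors PSMB9 and IFIT2 were called, beside 1.54% of all genes. NLRC5 and PSMB9 had r = 0.74 (permutation p = 4e-05) and rho = 0.75 (permutation p = 0.0001, adjusted p = 0.0249), with r = 0.68 when TC1869 and TC538, the tumors farthest from the NLRC5 median, were left out. IFIT2 had r = 0.69 (permutation p = 0.00012) and rho = 0.70 (permutation p = 0.00019, adjusted p = 0.0249), with r = 0.66 without those tumors. Other class I members were lower over the 25 tumors, with rho of 0.48 for B2M, 0.40 for TAP1 and -0.01 for TAPBP. With the second principal component removed from the ranks, IFIT2 (rho = 0.80) and PSMB9 (0.70) were called, beside 0.583% of all genes, and 0 rows in the opposite direction (1 at an unadjusted p below 0.05), beside 0.0321%.

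With CD74, 11 of 32 rows were called in the same direction over 30 tumors (5.42% of all tested genes), namely IRF1, ISG20, IFIT2, IFIT3, MX2, BST2, B2M, TAP1, PSMB9, NLRC5 and CIITA. IFIT5 was called in the opposite direction, as were 5.07% of all tested genes. Without TC538 it was not called. Over the 25 tumors CIITA, BST2 and PSMB9 were called, beside 0.652% of all genes, and 0 in the opposite direction (1 at an unadjusted p below 0.05 by the permutation test of rho), beside 0.273%. CIITA, which drives CD74 transcription in antigen presenting cells, had r = 0.85 (permutation p = 2e-05) and rho = 0.84 (permutation p = 1e-05, adjusted p = 0.0125) with CD74, and r = 0.79 without TC1088 and TC1979. BST2 had r = 0.74 (permutation p = 8e-05) and rho = 0.74 (permutation p = 0.00014, adjusted p = 0.0365), and its r was 0.58 without those tumors. With the second principal component removed from the ranks, CIITA (rho = 0.81) was called, beside 0.128% of all genes, and 0 rows in the opposite direction (1 at an unadjusted p below 0.05), beside 0.0107%.

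**Figure D3:**
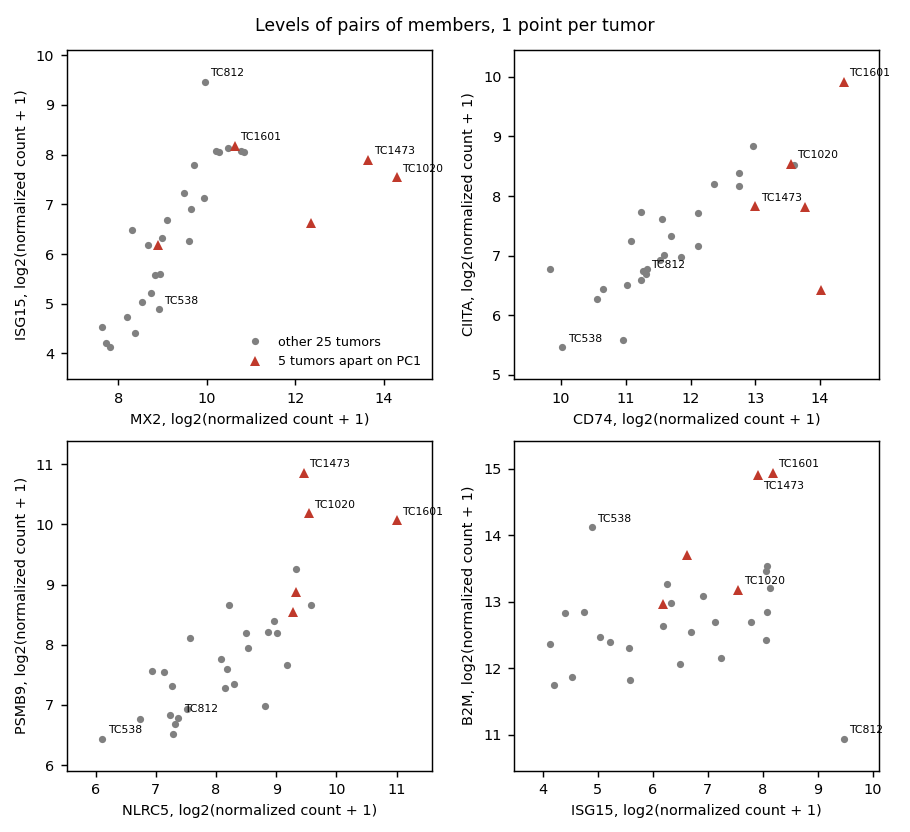
Levels of 4 pairs of members as log2(normalized count + 1), with 1 point per tumor, red triangles for the 5 tumors apart and gray circles for the other 25. ISG15 follows MX2 over the 25 tumors (rho = 0.91), and TC812 joins the highest ISG15 (9.47) to the lowest B2M (10.94).

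With PTPRC, a large share of all genes was called. Over 30 tumors 6 of 33 rows were called in the same direction (17.6% of all tested genes) and 3 in the opposite direction (17.3%). Without TC538 the latter count was 1. Over the 25 tumors 4 rows, DDX58, DDX60, IFIT5 and CXCL10, were called in the same direction (16.2%) and TAPBP in the opposite direction (15.1%). IFIT5 had r = 0.79 (permutation p = 2e-05) and rho = 0.74 (permutation p = 0.00011, adjusted p = 0.00263), with r = 0.74 without TC1994 and TC538. PTPRC was itself close to the second principal component (rho = 0.75) and not to the summed levels of macrophage and dendritic cell genes (0.07) or T and NK cell genes (0.37). With the second principal component removed from the ranks, 0 rows were called with PTPRC over the 25 tumors by the permutation test of rho beside 0.31% of all genes, and 0 in the opposite direction (0 at an unadjusted p below 0.05), beside 0.0107%. At an unadjusted p below 0.05, 9 of 33 rows were past the threshold in the same direction, beside 6.07% of all genes. The median rho of the rows was then 0.21, against -0.01 for all genes, with 0.45 for class I and 0.49 for class II, and CXCL10 had 0.59 (0.57 before). As measured, the median over the 25 tumors was -0.05, against -0.04 for all genes.

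The second principal component divided the members. Over the 25 tumors 5 rows had a rho of 0.5 or more with it, IFIT5 (0.91), DDX58 (0.70), HERC6 (0.68), DDX60 (0.60) and IFI44 (0.53), and 4 had -0.5 or less, XAF1 (-0.72), TAPBP (-0.68), IFI35 (-0.64) and DHX58 (-0.57). Across all 30 tumors the component had a rho of -0.48 with the counts on genes. The part of depth or RNA quality in these rows was not tested. With the component removed from the ranks, the rho with MX2 over the 25 tumors was 0.75 for DDX60 (0.39 before), 0.77 for IFI44L (0.50), 0.72 for IFI44 (0.42) and 0.58 for HERC6 (0.20). ISG15, at 0.91 in both cases, and RSAD2, at 0.82, were then called, beside 0.0267% of all genes.

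**Figure D4:**
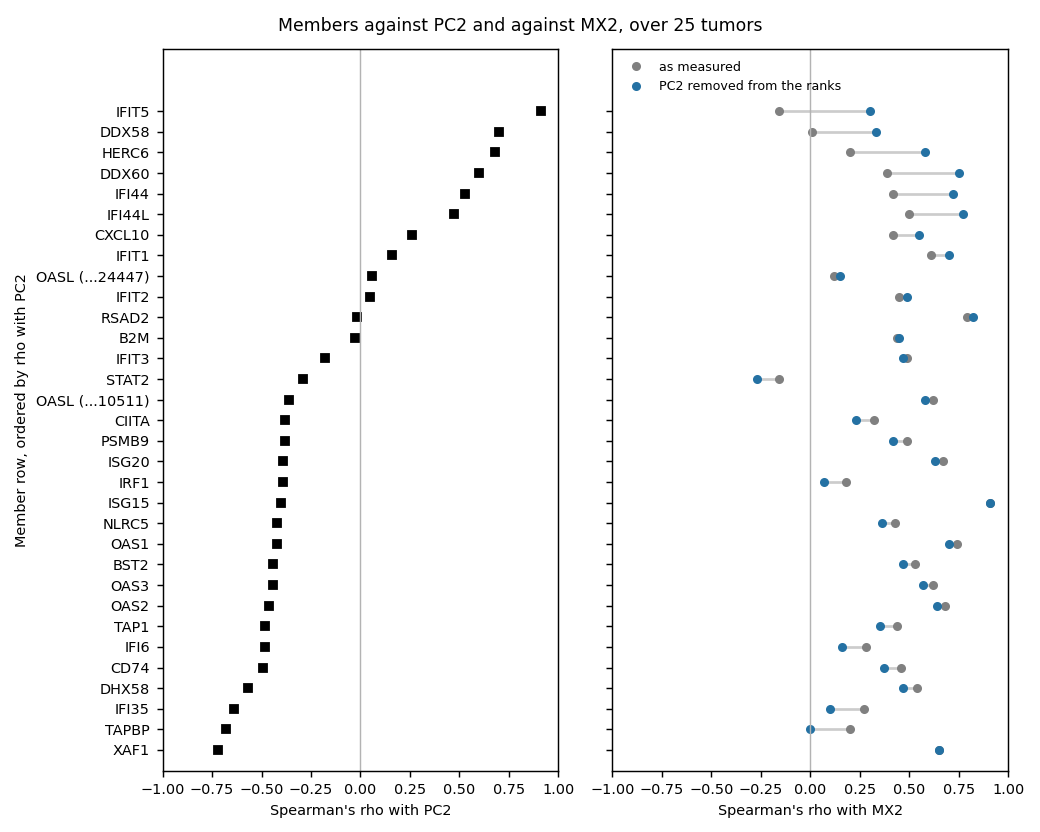
Spearman's rho over 25 tumors of each member row (vertical axis, ordered by its rho with the second principal component, PC2) with PC2 on the left and with MX2 on the right, as measured (gray) and with PC2 removed from the ranks (blue). The rows with the highest rho with PC2, among them DDX60 (0.39 and 0.75), differ most between gray and blue, while ISG15 has 0.91 in both.

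Among themselves, the closest members were partly of the same class and partly of different classes. The median rho over the 528 pairs of rows was 0.24 over the 25 tumors, as over 30, and 101 pairs reached 0.5 while 6 lay at -0.5 or below. Among the effectors, the rho was 0.79 between ISG15 and OAS1 and 0.74 between ISG15 and RSAD2. RSAD2 had 0.69 with IFIT1, 0.68 with IFI44L and 0.60 with IFI44, but 0.29 with OAS2 and 0.31 with OAS3. Between sensors and effectors, the rho was 0.79 for DDX60 and IFI44L, 0.76 for DDX60 and HERC6 and 0.75 for DDX58 and IFIT5. The 6 lowest pairs all held IFIT5 or STAT2, among them -0.56 between IFIT5 and XAF1 and -0.51 between STAT2 and DDX58. Class I and class II rows had a median rho of 0.54 with each other (0.61 over 30 tumors), class I rows of 0.43 among themselves (0.56) and effectors of 0.30 (0.31). These correlations share libraries and are given as a description.

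Members that neighbour each other in the genome were among the closest pairs. By the gene order of the UU_Cfam_GSD_1.0 assembly, 6 pairs had no more than 5 protein-coding genes between them. Their rho over the 25 tumors was 0.93 for IFI44 and IFI44L, 0.85 for OAS1 and OAS2, 0.79 for OAS1 and OAS3, 0.77 for OAS2 and OAS3, 0.73 for IFIT2 and IFIT3 and 0.68 for TAP1 and PSMB9. The median of the 6 was 0.78, beside 0.23 for the other 522 pairs. OASL, with its 2 rows, was not placed in the gene order, so all its pairs are among the 522. IFIT1 and IFIT5 were in none of the 6 pairs. Over the 25 tumors IFIT1 had a rho of 0.3 with IFIT2 and 0.5 with IFIT3, and IFIT5 had 0.14 and -0.06. Of the 6 pairs, all but TAP1 and PSMB9 are pairs of related sequences. The strand setting of the counting is not given in the sources used here, and reads shared between copies or overlapping neighbours could not be separated.

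**Figure D5:**
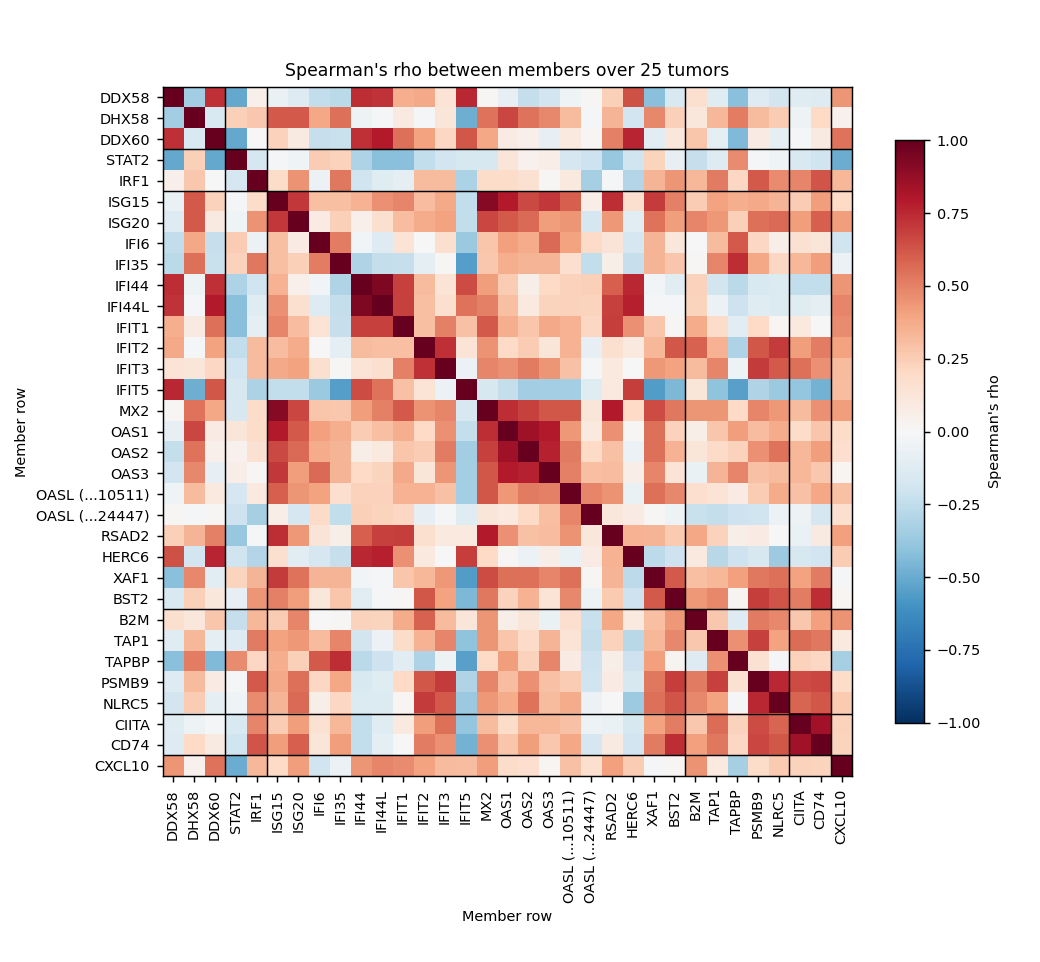
Spearman's rho over 25 tumors between each pair of the 33 member rows, in red above 0 and in blue below, with black lines between the classes. The blocks of OAS1 to OAS3 (0.77 to 0.85) and of IFI44 and IFI44L (0.93) stand out, and IFIT5 is blue against XAF1 (-0.56).

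Levels of genes of other cell types moved with some members. The class I rows, over the 25 tumors, had a median rho of 0.45 with the summed level of 13 T and NK cell genes and 0.47 with that of 11 macrophage and dendritic cell genes, and the class II rows had 0.41 and 0.42. With the summed level of 5 neutrophil genes the medians were 0.44 for class I and 0.54 for class II, and CD74 had 0.60, IRF1 0.62 and ISG20 0.63. Of these 5 genes CXCR2 and MPO had a median count below 10. For the effectors the medians were 0.14 with the T and NK cell genes, 0.20 with the macrophage and dendritic cell genes and 0.08 with the neutrophil genes. B2M had 0.70 with the macrophage and dendritic cell genes and NLRC5 had 0.72 with 6 endothelial cell genes, whereas HERC6 had -0.71 and IFI44L -0.65 with the endothelial genes. The summed level ran from 8.47 to 11.56 for the T and NK cell genes, where CD3D, CD3G, CD8A, GZMA and PRF1 had a median count below 10, and from 11.22 to 13.87 for the macrophage and dendritic cell genes. The medians of these sums over all tumors were 9.19 and 12.68. In the 5 tumors apart the T and NK cell sums were 9.21 to 11.47, all above that median. Their macrophage and dendritic cell sums were 12.58 to 13.68, from just below the median upward. These values lay inside the ranges of the other 25. Other lists reached beyond those ranges in TC1601, the tumor highest for B2M, NLRC5, CIITA and CD74. The neutrophil genes were at 12.94 there (at most 11.96 in the other 25), 8 fibroblast genes at 18.31 (16.54) and 6 skeletal muscle genes at 12.29 (11.72). The summed level of PTH, GCM2 and CASR, listed as parathyroid genes, was high in all 5 tumors apart, from 13.37 to 15.48 (highest in TC1020). In the other 25 it ran from 2.42 to 14.84, and the median of all tumors was 4.28. Of these 3 genes GCM2 and PTH had a median count below 10. The sum was not split by gene, and the presence of parathyroid tissue was not tested. With 8 B and plasma cell genes and 7 follicular thyrocyte genes, the class II rows had median rho of 0.36 and -0.41. The class I rows had 0.18 and -0.14, and the effectors 0.17 and -0.18. TC1088 had the highest B and plasma cell sum (15.99, median 13.77) and the lowest thyrocyte sum (7.85, median 18.52). Of the B and plasma cell genes, CD79B, MS4A1, MZB1 and PAX5 had a median count below 10. The part of other cell types in the levels of the members was not tested.

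Other genes of the same pathways had a lower median rho with MX2 than the members, but not with every anchor. The members and the lists of these other genes were chosen with earlier results of these data known, so the contrast is a description. Of 65 further interferon genes 43 were tested, and of 37 further antigen presentation genes 22. Over 30 tumors 2 of the 43 and 1 of the 22 were called in the same direction with MX2, beside 0.844% of all tested genes. With NLRC5 6 of the 43 and 4 of the 22 were called, beside 4.4%. With CD74 5 of the 43 and 8 of the 22 were called, where 11 of 32 member rows were, beside 5.42%. With PTPRC 13 of the 43 and 4 of the 22 were called, where 6 of 33 member rows were, beside 17.6% of all genes. The 4 of 22 and the 6 of 33 lay near that share. Over the 25 tumors the counts for the 43 and the 22 were 0 and 0 with MX2 by the permutation test of rho, beside 0.0214% of all genes. At an unadjusted p below 0.05 they were 9 and 1, beside 5.9%. With CD74 they were 1 and 3, beside 0.652%. The median rho of the 43 and of the 22 with MX2 over the 25 tumors was 0.13 and 0.09, beside 0.45 for the members, and with CD74 0.14 and 0.29, beside 0.33. The highest with MX2 over 30 tumors were ZBP1, a sensor of Z-form nucleic acid (rho over 25 tumors 0.70, adjusted p = 0.181 by permutation), DLA-79, a canine class I gene (0.60), and TRIM14 (0.65), and the lowest were JAK1 (-0.53), the kinase of interferon receptors, PLSCR1 (-0.38) and IRF8 (-0.45).

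Of genes that are no members, the closest to MX2 over 30 tumors were PIK3AP1, NCAM1, CDHR1, SLC25A48 and ZBP1, with rho of 0.80, 0.70, 0.71, 0.60 and 0.70 over the 25. Only PIK3AP1 of these was called over the 25 tumors (adjusted p = 0.0468 by permutation). Closest to CD74 were ARRB2, COLGALT1, XCR1, ANXA6 and CHDH, with rho of 0.86, 0.83, 0.80, 0.76 and 0.75 over the 25 tumors, and closest to NLRC5 were ANXA6, LFNG, IL16, KCNJ8 and KCNE4, with 0.79, 0.79, 0.82, 0.77 and 0.76. Close to PTPRC were GPR65, IRAG2, TLR1 and SAMSN1, with 0.92, 0.90, 0.89 and 0.89.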

How the data were processed

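RNA-seq libraries of 30 canine thyroid tumors were made by the authors from total RNA depleted of ribosomal RNA, and the reads were aligned with STAR, which also counted them per gene, to CanFam3.1. The deposited values are raw counts per Ensembl gene (30424 genes, 15780 with a symbol; 0 columns of no tumor). The labels put all tumors in 1 group, so no groups were compared.

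Levels are log2(count / size factor + 1), with median-of-ratios size factors over the 15611 genes counted in all 30 tumors. The 18711 genes tested reached 10 counts in 5 or more tumors. Intervals and floors (3 counts for a count of 0) cover counting error only, and p values measure only the spread between these tumors. No pair of tumors had identical counts (0 pairs).

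Spearman's rho with 4 anchors was tested with 100000 permutations and Benjamini-Hochberg adjustment. The permutations gave a single reference distribution of rho for each number of tumors. The test was first checked on simulated data, where genes varied independently except those made to follow 1 gene. The simulation held no set of tumors apart, so the check does not cover that feature of these data. Pearson's r was permuted for 12 chosen pairs. Principal components were taken from centred levels of all tested genes. The removal of a component or of PTPRC was done by regression on ranks. MX1, the anchor planned, matched no symbol and MX2 replaced it, chosen before its values were seen. Member classes, cell type lists and pathway lists, like the members themselves, were chosen with earlier results of these data known. Named genes are all members found, PTPRC, the 5 genes with a symbol and the highest rho with each anchor over 30 tumors, and the 3 highest and 3 lowest pathway genes by rho with MX2. A gene that this rule names for PTPRC is not reported here. Gene order, for 31 members matched by symbol, came from a RefSeq table of UU_Cfam_GSD_1.0. The alternatives were TMM-scaled values, a pseudocount of 8, no count filter, a filter of 10 counts in 15 tumors, leaving out TC1088, TC538 or the 2 tumors farthest from the median of the anchor, and removing the first principal component or PTPRC. Leaving out the 5 tumors apart, removing the second component and drawing 1000000 permutations were added after seeing the data. Software was Python 3.11.15, numpy 2.4.6, scipy 1.17.1, pandas 2.3.3, matplotlib 3.10.9 and, for TMM, edgeR 4.0.16 in R 4.3.3.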

Additional observations from a re-analysis of the deposited data

How the results depend on the processing

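No paired analysis was possible because the labels give a single group of tumors. Counts are of all genes called in either direction and then of members called in the same direction. Over 30 tumors, 210 genes and 9 members were called with MX2, 1236 and 11 with NLRC5, 1962 and 11 with CD74, and 6525 and 6 with PTPRC. Without the 5 tumors apart, counts were 4 and 1 with MX2, 315 and 2 with NLRC5, and 173 and 3 with CD74. With 1000000 permutations they were 6 and 2, 343 and 3, and 206 and 3. With the second component also removed, they were 5 and 2, 115 and 2, 26 and 1, and 60 and 0 with PTPRC. Over 30 tumors, removing the second component gave 426 genes with MX2 and 163 genes and 0 members with PTPRC. At an unadjusted p below 0.05 by the permutation test of rho, 13 members followed PTPRC in the same direction, beside 1403 of 18710 genes. Removing the first component gave 5 and 2 with MX2, 188 and 1 with NLRC5, and 15 and 0 with CD74. At the unadjusted threshold 5 members then followed CD74 in the same direction, beside 1490 of 18710 genes. Leaving out the 2 tumors farthest from the median of the anchor gave 0 and 0 with MX2 by the permutation test of rho (2748 genes and 21 members at an unadjusted p below 0.05), 348 and 6 with NLRC5, and 708 genes with CD74. Removing PTPRC gave 1004 and 17 with MX2, 3109 genes with NLRC5 and 4190 with CD74. With no count filter 29 genes and 3 members were called with MX2. The members in the most variable 10% were 1, but 2 with a pseudocount of 8 and 0 without TC1088. In 87 other comparisons with an alternative, the count stayed within 1.5 times or the median rho between members moved by less than the SD over their pairs. The count moved further in 42 comparisons. Among the 87 are the counts called with a pseudocount of 8, which could not change because a pseudocount leaves the ranks as they are. Members called in the opposite direction with PTPRC were 3, but 1 with TMM-scaled values and 1 without TC538, and IFIT5 was no longer called with CD74 without TC538 (0 members, 1 at an unadjusted p below 0.05). The cause of these differences was not tested. Rows with few counts, ISG20 and CXCL10 among them, are limited by depth.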
